A study of Mus musculus with 12 samples.

Results

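The genes described here encode the machinery of intraflagellar transport, its motors, the ciliary transition zone and ciliary membrane trafficking. They are 40 of the 53431 rows of a gene count table, picked by symbol. No measured value entered that rule, but the list was chosen with earlier results of these data known. All 40 passed the filter on low counts that left 15968 genes for testing. By role they are 12 subunits of the IFT-B complex, 7 genes of the IFT-A complex and its adaptor Tulp3, 4 motor subunits, 13 transition zone genes and 4 genes of ciliary membrane trafficking.

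RNA was measured in adipose tissue of mice on a mixed C57BL/6 x 129/SvJ background, all collected at 6 months of age, in 3 groups of 4 libraries. The first group is labelled Bbs2-/- and received Genz667161, an inhibitor of glucosylceramide synthase (GCSi), at 0.033% of feed weight from 2 to 6 months. The second is labelled Bbs2-/- with no inhibitor, and the third is wild type (WT). The labels give neither the fat depot nor the sex, and nothing in them states that the numbered samples of a group came from different animals. The p-values below therefore rest on the spread from sample to sample, part of which may be technical.

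Primary cilia are built and kept up by trains of IFT-B and IFT-A particles that kinesin carries outward and a dedicated dynein carries back. The transition zone at the ciliary base acts as a gate for membrane and soluble proteins, and mutations in its genes cause Meckel, Joubert and nephronophthisis syndromes in people. The BBSome, of which Bbs2 encodes a subunit, rides on intraflagellar transport as a cargo adaptor that carries membrane proteins out of the cilium. Fat cell precursors carry primary cilia, which mature adipocytes lose.

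The libraries held 16317865 to 20224200 estimated counts. Bbs2 itself was at 61.5 ± 5.3 counts per 1000000 (CPM; SD, n = 4) in treated Bbs2-/- libraries, 61.9 ± 9.41 CPM in untreated Bbs2-/- libraries and 12.5 ± 0.267 CPM in WT libraries, so it was higher where the label says it is lost, and all directions given here refer to the labels. Adipoq, the defining transcript of adipocytes, was present in every library, at means of 3234, 1013 and 4212 CPM in treated, untreated and WT libraries. Foxj1, a transcription factor of motile ciliated epithelium, had 154 and 140 counts in treated 1 and treated 3 and 48 and 164 counts in WT 1 and WT 4, against at most 2 counts in the other 8 libraries. Epididymis markers stood apart in WT 1, where Crisp1 reached 1082 CPM. The 13 such markers summed to 1199.8 CPM in WT 1, 6.98 CPM in WT 4 and at most 0.449 CPM in any other library. WT 2 and WT 3 have library names of another form than the remaining 10, whose names call them merged. Calls lost without the libraries with Foxj1 counts, or without WT 2 and WT 3, are given beside the genes.

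In untreated Bbs2-/- libraries, 12 of the 40 genes were lower than in WT and 1 was higher, by edgeR's quasi-likelihood test at an adjusted p under 0.05. Of all tested genes, 19.7% were lower and 19.6% were higher in that comparison. The genes that fell were Ift46, Ift52, Ift81, Ift43, Tulp3, Dync2li1, Tctn2, Tmem216, Tmem231, B9d1, Cc2d2a and Arl3, and Kif3b rose. Their share of 30% lower stood above the 19.7% of all genes and their share of 2.5% higher stood below the 19.6%. The median log2 fold change of the 40 genes was -0.20, against -0.02 over all tested genes. For 12 genes every untreated library lay below every WT library, where 17.2% of all genes did so. These include Ift20, which had no call (edgeR adjusted p = 0.126), and leave out Cc2d2a, which overlapped WT. For 1 gene, Tmem67, every untreated library lay above, where 19.5% of all genes did so.

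In treated against untreated Bbs2-/- libraries, 12 of the 40 genes were higher and 0 were lower, where 18.5% of all tested genes were higher and 18.8% were lower. Of the 40, 18 had an unadjusted p under 0.05 in edgeR in either direction, and DESeq2 also found 0 lower. The 12 were Ift46, Ift52, Ift81, Ift43, Tulp3, Dync2li1, Tctn1, Tctn2, Tmem216, Tmem231, B9d1 and Cc2d2a. The median log2 fold change was 0.12, against 0.03 over all genes. Treated libraries all lay above untreated ones for 11 genes (19.0% of all genes) and all below for 2 genes, Ift80 and Kif3b (20.7% of all genes). The 11 include Ift27, which had no call, and leave out Dync2li1 and B9d1, which overlapped. Both comparisons use the same 4 untreated libraries, so the values of the second are not independent of those of the first.

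Between treated Bbs2-/- and WT libraries 0 of the 40 genes passed in either direction, where 0.175% of all genes were higher and 0.0814% were lower. In edgeR 2 of them had an unadjusted p under 0.05, DESeq2 called 0, and treated and WT libraries overlapped for each of the 40, while 2.68% of all genes had all treated libraries above WT and 2.21% had them all below. The largest differences were Kif3a at a log2 fold change of -0.37 (SE 0.15), Nphp4 at 0.36 (SE 0.36) and Rpgrip1l at 0.30 (SE 0.25).

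**Figure D1:**
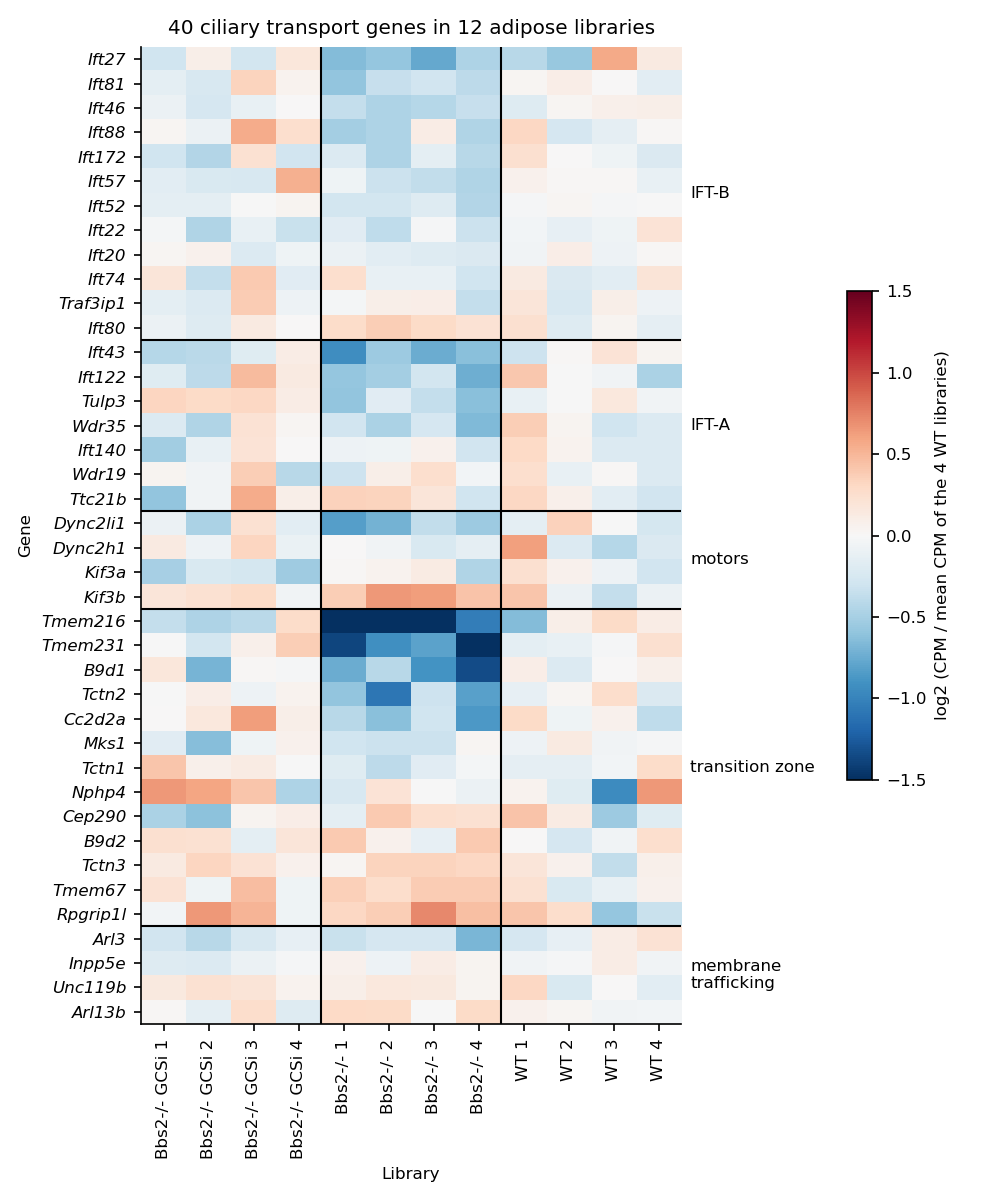
Level of each of the 40 genes (rows, grouped by role) in each of the 12 libraries (columns), as log2 of its CPM over the mean CPM of the 4 WT libraries, with the colour scale ending at -1.5 and 1.5. The rows of Tmem216 and Tmem231 are blue in all 4 untreated Bbs2-/- columns, with Tmem216 at the end of the scale in untreated 1, 2 and 3, and the row of Kif3b is red in all 4 of these columns.

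These counts depended on scaling and, as given for the genes below, on which libraries were in the fit. With library size alone in place of TMM scaling, the median of all genes moved to 0.16 for untreated against WT and to -0.10 for treated against untreated. The 40 genes then split into 4 lower and 5 higher for untreated against WT (12.6% and 27.9% of all genes), and into 5 higher and 3 lower for treated against untreated (13.1% and 23.8% of all genes). The genes that kept their call in the first of these were Tmem216, Tmem231, Tctn2, Ift43 and Kif3b, and those gained as higher were Arl13b, Ift80, Inpp5e and Tctn3. In the second, Ift80, Inpp5e and Kif3a were the 3 lower genes.

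Untreated libraries also differed from both other groups in cell type markers. Of 14 mature adipocyte markers, 12 were lower in untreated than in WT libraries, and their summed level ranged from 30399 to 47804 CPM in treated, from 15611 to 19323 CPM in untreated and from 28330 to 49658 CPM in WT libraries. Of 12 macrophage markers 10 were higher than in WT, with sums of 518 to 1139 CPM in treated, 4485 to 5828 CPM in untreated and 537 to 1493 CPM in WT libraries. Of 13 preadipocyte and fibroblast markers 9 were higher, with sums of 2469 to 3059, 4822 to 5598 and 2390 to 4010 CPM in treated, untreated and WT libraries, and of 10 cell division genes 10 were higher, with sums of 87.0 to 128, 275 to 344 and 72.8 to 180.1 CPM. Of 8 endothelial markers 0 passed for untreated against WT (2 at an unadjusted p under 0.05 in edgeR). Their sums were 1126 to 1612, 650 to 1106 and 777 to 1268 CPM in treated, untreated and WT libraries. In treated against untreated, 4 of the 8 were higher, as were 12 of the 14 mature adipocyte markers (18.5% of all genes). Lower were 11 of the 12 macrophage markers, 7 of the 13 preadipocyte and fibroblast markers and 10 of the 10 cell division genes (18.8% of all genes). The part of cell type makeup in the ciliary results was not tested, and in bulk tissue fewer cells of a type cannot be told apart from less RNA per cell.

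Promoters were set beside these calls. The X-box is the sequence bound by RFX transcription factors, which drive many ciliary genes. Of the 40 genes, 35 have a promoter in the RefSeq table for GRCm38.p6, taken as 250 bases before to 50 after the gene's start. The full X-box GTTNCCNNGGNAAC, on either strand, was found in Mks1 and Tctn1, or 5.71% of the 35, against 0.529% of 27025 mouse promoters of that length. Its single arm GTTGCC, which the full matches of these genes also contain, was found on either strand in 18 of 35 promoters (51.4%), against 14.1% of all promoters. Among the genes that were lower in untreated libraries the arm was present in 3 of 10 (30%), namely Tctn2, Tmem231 and B9d1, and among those with no call in 15 of 24 (62.5%). These matches describe letters, and a window without one says nothing of the factor.

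The 150 bases before the start are shown 5′ to 3′ for the transition zone genes with the largest falls in untreated libraries, Tmem216 and Tmem231, and for Mks1 and Ift27, which carried matches and had no call. Capitals mark the X-box or its arm, and the Tmem216 stretch has neither. The stretches lie at chr19:10556239-10556388 (minus strand) for Tmem216, chr8:111933814-111933963 (minus strand) for Tmem231, chr11:87853065-87853214 (plus strand) for Mks1 and chr15:78174082-78174231 (minus strand) for Ift27. The capitals begin at base -104 in Tmem231, -24 in Mks1 and -9 in Ift27, counted from the RefSeq start. The GENCODE annotation, which gave gene coordinates, starts Tmem231 at 111933881 and Ift27 at 78174107, inside the stretches shown. The arm in Ift27 therefore lies within the GENCODE gene.
Tmem216: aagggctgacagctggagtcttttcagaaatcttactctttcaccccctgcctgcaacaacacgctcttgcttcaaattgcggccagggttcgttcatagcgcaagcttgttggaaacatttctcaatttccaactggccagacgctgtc
Tmem231: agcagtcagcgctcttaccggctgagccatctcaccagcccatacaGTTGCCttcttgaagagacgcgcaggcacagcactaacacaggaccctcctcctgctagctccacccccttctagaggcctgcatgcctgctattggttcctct
Mks1: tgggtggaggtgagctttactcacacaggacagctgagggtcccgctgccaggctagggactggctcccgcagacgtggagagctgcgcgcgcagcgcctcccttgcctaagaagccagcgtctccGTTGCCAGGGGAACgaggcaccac
Ift27: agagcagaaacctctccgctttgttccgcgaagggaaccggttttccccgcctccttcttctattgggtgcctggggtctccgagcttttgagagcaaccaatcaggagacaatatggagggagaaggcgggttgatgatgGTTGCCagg

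The IFT-B complex carries cargo from the ciliary base to the tip. Of its 12 subunits, 3 were lower in untreated than in WT libraries, Ift46, Ift52 and Ift81, and these 3 were higher in treated than in untreated libraries. Each count is 25% of the subunits, not far from the 19.7% and 18.5% of all genes, so the counts alone say little of the complex. Log2 fold changes were below 0 for 11 of 12 in untreated against WT, with a median of -0.29, and above 0 for 10 of 12 in treated against untreated, with a median of 0.18.

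Ift46, a core subunit, was at 36.1, 32.3, 35.5 and 38.6 CPM in treated libraries, 29.8, 27.9, 28.6 and 30.2 CPM in untreated libraries and 33.4, 39.1, 40.3 and 40.6 CPM in WT libraries. All 4 untreated libraries lay below all 8 others. Ift46 fell by 0.40 on the log2 scale in untreated against WT (SE 0.09, edgeR adjusted p = 0.00341) and was 0.29 higher in treated against untreated (SE 0.09, edgeR adjusted p = 0.019). The second call was lost without untreated 2 (0.25, edgeR adjusted p = 0.0779), untreated 3 (0.26, adjusted p = 0.0644) or treated 4 (0.25, adjusted p = 0.0559). With library size alone Ift46 passed in neither comparison (-0.21 and 0.16), while its call against WT held without WT 2 and WT 3.

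Ift52, another core subunit, had 40.3, 40.1, 44.1 and 45.7 CPM in treated libraries, 36.7, 36.7, 38.9 and 32.9 CPM in untreated libraries and 44.1, 45.5, 44.0 and 44.4 CPM in WT libraries. The WT libraries lay within a narrow band and the untreated ones below both other groups. Its log2 fold change was -0.29 in untreated against WT (SE 0.08, edgeR adjusted p = 0.00936) and 0.23 in treated against untreated (SE 0.08, edgeR adjusted p = 0.031). Without WT 2 and WT 3 the first value was -0.27 (edgeR adjusted p = 0.0811), and without the 4 libraries with Foxj1 counts the second was 0.26 (edgeR adjusted p = 0.0807). That call was also lost without any 1 of untreated 1, untreated 2, untreated 4, treated 3 and treated 4 (edgeR adjusted p up to 0.131), and with library size alone the values were -0.11 and 0.10.

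Ift81, which binds tubulin together with Ift74, had 9.42, 8.82, 13.2 and 10.8 CPM in treated libraries, 6.91, 8.2, 8.59 and 7.93 CPM in untreated libraries and 10.7, 11.2, 10.5 and 9.36 CPM in WT libraries. Treated 3 was the highest of all, and untreated libraries again lay below the rest. The log2 fold changes were -0.40 in untreated against WT (SE 0.14, edgeR adjusted p = 0.0413) and 0.42 in treated against untreated (SE 0.14, edgeR adjusted p = 0.0359). The first call was lost without any 1 of WT 1, WT 2, WT 3 and the 4 untreated libraries (edgeR adjusted p of 0.0613 to 0.114), and the second without any 1 of the untreated libraries, treated 3 and treated 4 (edgeR adjusted p of 0.0595 to 0.111). Without WT 2 and WT 3 the first was -0.33 (edgeR adjusted p = 0.225) and the second 0.43 (edgeR adjusted p = 0.0501), and without the 4 libraries with Foxj1 counts the second was 0.33 (edgeR adjusted p = 0.149). Its partner Ift74 was at -0.05 (SE 0.19) and 0.09 (SE 0.19) in the same comparisons and passed in neither.

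Ift27, a small GTPase that helps the BBSome leave the cilium, had 9.37, 12.3, 9.58 and 13.0 CPM in treated libraries, 7.37, 7.76, 6.79 and 8.4 CPM in untreated libraries and 8.66, 7.77, 17.1 and 12.7 CPM in WT libraries. Treated libraries lay above untreated ones, and the WT libraries spread over both. Ift27 did not pass for untreated against WT (log2 fold change -0.61, SE 0.23, edgeR adjusted p = 0.0512) or for treated against untreated (0.54, SE 0.23, edgeR adjusted p = 0.0787). WT 3 weighed on the first value, which was -0.36 without it (edgeR adjusted p = 0.18). Ift27 passed as lower in untreated against WT in DESeq2 and with a filter of at least 1 CPM in 4 libraries. The same call was made with the motile cilia level as a covariate, and without WT 1 or WT 2. In treated against untreated it passed as higher with only these 2 groups in the fit, without WT 3, and without WT 2 and WT 3.

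Of the other IFT-B subunits, Ift80 alone had a positive log2 fold change in untreated against WT (0.29, SE 0.13, edgeR adjusted p = 0.0974). Its mean was 7.74 ± 0.748 CPM in treated, 9.66 ± 0.425 CPM in untreated and 7.91 ± 1.11 CPM in WT libraries (SD, n = 4 each). Without WT 1, and with library size alone, Ift80 passed as higher in untreated against WT and as lower in treated against untreated. Ift88, a core subunit whose hypomorphic mutation in mice gives polycystic kidneys, was at 11 ± 2.25, 7.70 ± 1.69 and 9.50 ± 1.68 CPM in treated, untreated and WT libraries and passed in neither comparison (treated against untreated 0.52, SE 0.19, edgeR adjusted p = 0.0534). It passed as higher in treated against untreated in DESeq2, in limma, with the 1 CPM filter and with the replicate block. The same call was made without any 1 of WT 1, untreated 3 and treated 2. Ift172, Ift57, Ift22, Ift20 and the microtubule-binding Traf3ip1 did not pass either, with log2 fold changes of -0.30, -0.29, -0.22, -0.16 and -0.04 in untreated against WT. Without treated 4, Ift57 passed as lower in that comparison. Per transcript length, Ift20, which also sits at the Golgi, had the highest level of the 39 genes found in the log2 FPKM table, at a mean of 5.41 log2 FPKM over the 12 libraries.

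The IFT-A complex returns cargo to the base and, with its adaptor Tulp3, brings membrane receptors into the cilium. Ift43 and Tulp3, 2 of the 7 genes, were lower in untreated than in WT libraries and higher in treated than in untreated libraries. With so few genes, this share of 28.6% is also not far from the 19.7% and 18.5% of all genes. The group's median log2 fold changes were -0.41 and 0.33 in these comparisons.

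Ift43, a small peripheral subunit, was at 14.2, 14.4, 16.9 and 20.6 CPM in treated libraries, 10.1, 13.0, 11.4 and 12.4 CPM in untreated libraries and 15.4, 19.3, 22.0 and 19.7 CPM in WT libraries. The highest untreated library lay below the lowest of both other groups. Ift43 fell by 0.70 on the log2 scale in untreated against WT (SE 0.15, edgeR adjusted p = 0.00325), and was 0.49 higher in treated against untreated (SE 0.15, edgeR adjusted p = 0.0214). The first call was lost without WT 2 and WT 3 (-0.57, edgeR adjusted p = 0.05, just above the threshold before rounding). The second was lost without untreated 1, untreated 3 or treated 4 (log2 fold change of 0.37 to 0.46, edgeR adjusted p of 0.0629 to 0.0674).

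Tulp3 had 25.5, 25.05, 25.4 and 22.1 CPM in treated libraries, 13.6, 18.1, 16 and 13.3 CPM in untreated libraries and 19.0, 20.4, 22.8 and 19.7 CPM in WT libraries. No untreated library overlapped either other group, and treated libraries other than treated 4 lay above every WT library. Its log2 fold change was 0.68 in treated against untreated (SE 0.11, edgeR adjusted p = 0.000846), which passed in every alternative run, and -0.42 in untreated against WT (SE 0.11, edgeR adjusted p = 0.0121), which was lost without untreated 4 (-0.33, edgeR adjusted p = 0.0541), without WT 2 and WT 3 (-0.33, edgeR adjusted p = 0.131) and with library size alone (-0.24, edgeR adjusted p = 0.155). Treated against WT, Tulp3 was at 0.26 (SE 0.11, edgeR adjusted p = 0.444).

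Ift122, a core subunit, was at 14.3 ± 3.79, 9.70 ± 1.29 and 13.9 ± 3.45 CPM in treated, untreated and WT libraries, with log2 fold changes of -0.52 in untreated against WT (SE 0.21, edgeR adjusted p = 0.0713) and 0.56 in treated against untreated (SE 0.21, edgeR adjusted p = 0.0543). It passed in the second comparison in DESeq2 and with only these 2 groups in the fit. The same call was made without any 1 of WT 1, WT 4, treated 1 and treated 2. Without WT 4 it also passed as lower in the first comparison. Wdr35 lay at -0.41 (SE 0.18) and 0.33 (SE 0.18) and passed in neither. Ift140 (-0.09, SE 0.16), Wdr19 (0.01, SE 0.18) and Ttc21b (0.16, SE 0.24) were nearer to 0 in untreated against WT, all 3 with an edgeR adjusted p above 0.6.

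Of the 4 motor subunits, Dync2li1 was lower and Kif3b higher in untreated than in WT libraries, or 25% each way, where 19.7% and 19.6% of all genes were. Kif3b, which with Kif3a forms the kinesin that drives outward transport and which also moves other cargo in cells, was the single gene of the 40 that rose in untreated against WT. It had 40.5, 41.8, 43.5 and 34.5 CPM in treated libraries, 46.0, 56.0, 55.0 and 48.0 CPM in untreated libraries and 47.6, 33.6, 27.9 and 33.7 CPM in WT libraries. Untreated libraries lay above all treated ones, while WT 1, the library with the most epididymis transcripts, reached into their range. The log2 fold change was 0.52 in untreated against WT (SE 0.15, edgeR adjusted p = 0.015) and -0.36 in treated against untreated (SE 0.15, edgeR adjusted p = 0.0753). Without WT 2 and WT 3 the first value was 0.34 (edgeR adjusted p = 0.157). Kif3b passed as lower in treated against untreated without the 4 libraries with Foxj1 counts. The same call was made with the motile cilia level as a covariate, with only these 2 groups in the fit, and without WT 1. Its partner Kif3a was at 15.7 ± 1.69, 19.6 ± 3.28 and 20.3 ± 3.11 CPM in treated, untreated and WT libraries (-0.05, SE 0.15, and -0.33, SE 0.15) and passed in neither comparison. Kif3a passed as lower in treated against untreated with library size alone and without untreated 4.

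Dync2li1, the light intermediate chain of the dynein of inward transport, had 9.73, 7.46, 12.1 and 9.28 CPM in treated libraries, 5.82, 6.32, 7.99 and 7.08 CPM in untreated libraries and 9.31, 13.1, 10.3 and 8.60 CPM in WT libraries. Treated 2 lay within the untreated range, and the untreated and WT libraries did not overlap. Dync2li1 fell by 0.60 on the log2 scale in untreated against WT (SE 0.18, edgeR adjusted p = 0.0204) and was 0.50 higher in treated against untreated (SE 0.18, edgeR adjusted p = 0.0454). The first value was -0.39 without WT 2 and WT 3 together (edgeR adjusted p = 0.204) and -0.41 with library size alone (edgeR adjusted p = 0.0848), and its call was also lost without any 1 of WT 2, untreated 1 and untreated 2 (edgeR adjusted p up to 0.0708). The second was lost without any 1 of WT 3, the untreated libraries and treated 1, treated 3 and treated 4 (edgeR adjusted p up to 0.135), and was 0.31 without the libraries with Foxj1 counts (edgeR adjusted p = 0.246). Dync2h1, the heavy chain of the same motor, was at 6.59 ± 0.911, 5.82 ± 0.396 and 6.23 ± 2.23 CPM in treated, untreated and WT libraries and passed in neither comparison (-0.10, SE 0.22, and 0.18, SE 0.22), with WT 1 at 9.53 CPM as the highest library.

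The transition zone group held the largest changes of the 40. In untreated against WT 5 of its 13 genes (38.5%, against 19.7% of all genes) fell, Tmem216, Tmem231, B9d1, Tctn2 and Cc2d2a, and in treated against untreated these 5 and Tctn1 (46.2%, against 18.5%) rose. All 6 belong to the group of tectonic, B9 and membrane proteins of the transition zone that is named for Meckel syndrome and Joubert syndrome. So do Tctn3, B9d2, Tmem67 and Mks1, which had no call. Their log2 fold changes in untreated against WT were 0.26, 0.20, 0.35 and -0.22, so membership does not set the called genes apart. With 5 genes above 0 and 8 below in untreated against WT, the group's median log2 fold change was -0.19, and it was 0.35 in treated against untreated.

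Tmem216 (ENSMUSG00000024667.11, chromosome 19, 10533865 to 10556238, minus strand, mm10) encodes a tetraspan membrane protein of the transition zone. It was at 29.8, 27.8, 28.9 and 46.1 CPM in treated libraries, 11.2, 10.9, 11.6 and 18.6 CPM in untreated libraries and 24.2, 40.5, 46.5 and 41.3 CPM in WT libraries. Every untreated library lay below every other library, and the fourth library of both Bbs2-/- groups was well above its 3 companions. The log2 fold change was -1.54 in untreated against WT (SE 0.25, edgeR adjusted p = 0.000646) and 1.34 in treated against untreated (SE 0.24, edgeR adjusted p = 0.00142), and both calls held in all 24 other settings run. Of its exon bases 5.15% overlap Cpsf7 on the opposite strand, and whether counting used strand is not given in the sources used here. Cpsf7 was at 74.1 ± 3.7, 78.7 ± 6.66 and 70.6 ± 4.79 CPM in treated, untreated and WT libraries and passed in neither comparison. The neighbouring transition zone gene Tmem138, which lies 14239 bases away, was at 5.89 ± 0.702, 4.51 ± 0.241 and 5.92 ± 0.641 CPM in the same groups (-0.39 in untreated against WT, SE 0.15, edgeR adjusted p = 0.0525).

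Tmem231 (ENSMUSG00000031951.8, chromosome 8, 111912011 to 111933881, minus strand, mm10), which forms a complex with B9d1, had 4.66, 3.87, 4.92 and 6.03 CPM in treated libraries, 1.80, 2.47, 2.70 and 1.46 CPM in untreated libraries and 4.25, 4.32, 4.64 and 5.52 CPM in WT libraries. Treated and WT libraries covered nearly the same range, with all untreated ones below it. Tmem231 fell by 1.15 on the log2 scale in untreated against WT (SE 0.23, edgeR adjusted p = 0.00232) and was 1.21 higher in treated against untreated (SE 0.23, edgeR adjusted p = 0.0018). These calls also held in all 24 other settings, although on the log2 FPKM values, whose offset shrinks changes of low genes, limma gave -0.66 and 0.67.

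B9d1, one of the paired B9 domain proteins, had 3.78, 2.07, 3.39 and 3.30 CPM in treated libraries, 2.01, 2.52, 1.80 and 1.32 CPM in untreated libraries and 3.59, 2.91, 3.38 and 3.55 CPM in WT libraries. Treated 2 lay inside the untreated range. The log2 fold changes were -0.81 in untreated against WT (SE 0.25, edgeR adjusted p = 0.0236) and 0.71 in treated against untreated (SE 0.25, edgeR adjusted p = 0.0429). Leaving out the 4 libraries with Foxj1 counts gave -0.73 (edgeR adjusted p = 0.116) and 0.51 (edgeR adjusted p = 0.272), and the first call was also lost without WT 4, untreated 3 or untreated 4 (adjusted p up to 0.0719). Without WT 2 and WT 3 the values were -0.89 (edgeR adjusted p = 0.0723) and 0.72 (edgeR adjusted p = 0.0582). The second call was lost without any 1 of 9 libraries, namely those other than WT 1, untreated 2 and treated 2 (edgeR adjusted p up to 0.119). Its partner B9d2 was at 7.40 ± 0.887, 7.72 ± 1.32 and 6.74 ± 0.972 CPM in treated, untreated and WT libraries and passed in neither comparison (0.20, SE 0.17, and -0.06, SE 0.17).

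**Figure D2:**
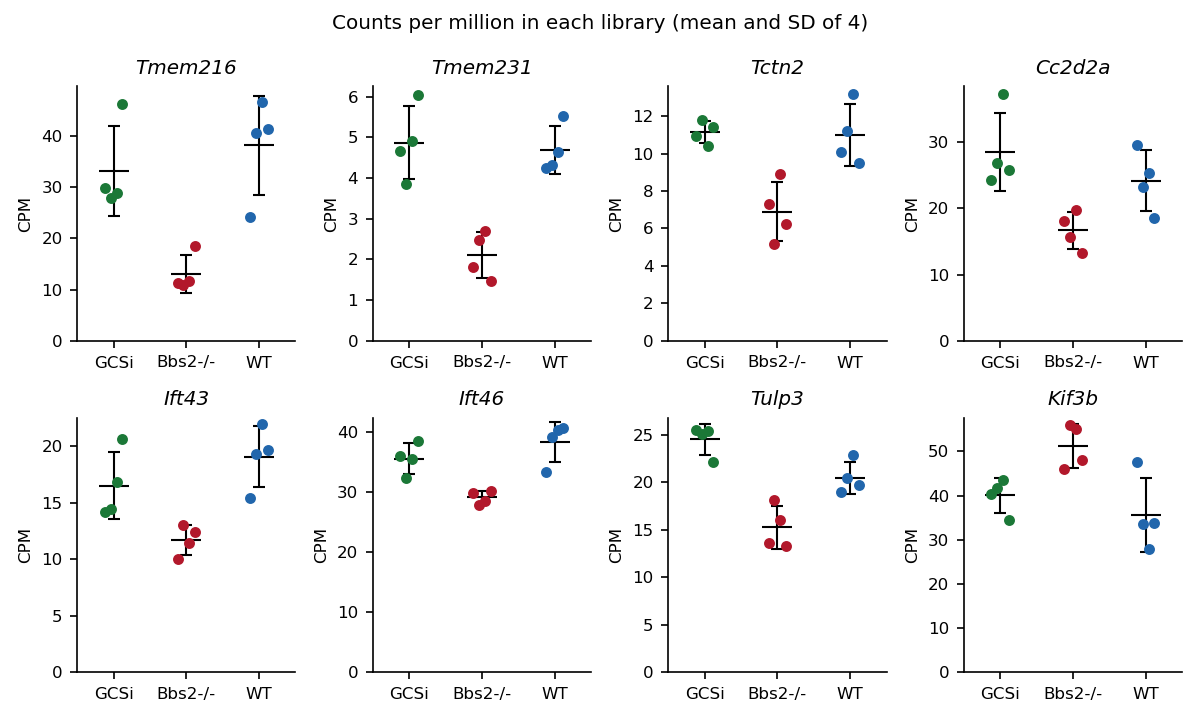
CPM of 8 of the genes in each library (points) with the mean and SD of the 4 libraries of a group (bars), where GCSi stands for treated Bbs2-/-. Untreated Bbs2-/- libraries sit lowest for the first 7 genes, overlapping WT at Cc2d2a, and highest for Kif3b, where WT 1 at 47.6 CPM reaches into their range.

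The tectonics, secreted or membrane proteins of the same gate, did not move alike. Tctn2 had 10.9, 11.8, 10.4 and 11.4 CPM in treated libraries, 7.32, 5.19, 8.88 and 6.23 CPM in untreated libraries and 10.1, 11.2, 13.2 and 9.48 CPM in WT libraries, with all untreated libraries below the rest. Its log2 fold change was -0.67 in untreated against WT (SE 0.17, edgeR adjusted p = 0.00781) and 0.69 in treated against untreated (SE 0.17, edgeR adjusted p = 0.00692). The call against WT was lost without WT 2 and WT 3 together (-0.49, edgeR adjusted p = 0.11). Tctn1 passed for treated against untreated (0.35, SE 0.13, edgeR adjusted p = 0.0495), with means of 21.9 ± 2.91, 17.2 ± 1.78 and 19.7 ± 2.76 CPM in treated, untreated and WT libraries. That call was lost without any 1 of WT 2, WT 3, untreated 1, untreated 2, untreated 3, treated 1, treated 2 and treated 3 (edgeR adjusted p up to 0.158), without WT 2 and WT 3 (0.36, edgeR adjusted p = 0.0543) and without the libraries with Foxj1 counts (0.24, edgeR adjusted p = 0.182). Of the exon bases of Tctn1, 18.98% overlap Hvcn1, a proton channel gene of leukocytes on the opposite strand that was at 23.8 ± 2.59, 54.3 ± 17 and 24.1 ± 4.53 CPM. Tctn3 was at 10.2 ± 0.809, 10.7 ± 1.05 and 8.94 ± 1.41 CPM and passed in neither comparison (0.26, SE 0.14, and -0.07, SE 0.14).

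Cc2d2a, a scaffold that organizes the transition zone, had 24.3, 26.8, 37.2 and 25.7 CPM in treated libraries, 18.1, 15.7, 19.7 and 13.3 CPM in untreated libraries and 29.5, 23.2, 25.3 and 18.5 CPM in WT libraries. Treated libraries lay above all untreated ones, while WT 4 lay within the untreated range. The log2 fold change was 0.77 in treated against untreated (SE 0.18, edgeR adjusted p = 0.00529), a call that held in all 24 other settings. For untreated against WT it was -0.53 (SE 0.18, edgeR adjusted p = 0.0314), which was lost without any 1 of WT 1, WT 2, WT 3, untreated 2 and untreated 4 (edgeR adjusted p of 0.0532 to 0.113) and without WT 2 and WT 3 together (-0.52, edgeR adjusted p = 0.144).

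The remaining transition zone genes had no call in any comparison. Rpgrip1l was at 4.86 ± 1.24, 5.46 ± 0.712 and 3.95 ± 1.25 CPM in treated, untreated and WT libraries (0.47 in untreated against WT, SE 0.25, edgeR adjusted p = 0.165). Tmem67, a receptor-like membrane protein, was at 5.26 ± 0.952, 6.02 ± 0.231 and 4.73 ± 0.66 CPM, with a log2 fold change of 0.35 in untreated against WT (SE 0.17, edgeR adjusted p = 0.121). With the motile cilia level as a covariate, Tmem67 passed as higher in that comparison. Cep290, the large coiled-coil protein that links microtubules to the membrane, was at 3.62 ± 0.882, 4.76 ± 0.722 and 4.16 ± 1.18 CPM. Mks1, whose promoter holds the full X-box shown above, was at 8.19 ± 1.62, 7.95 ± 0.994 and 9.26 ± 0.643 CPM (-0.22 in untreated against WT, SE 0.16). Nphp4 had the lowest level per transcript length of the 39 genes, at 0.36 log2 FPKM. These values include an offset, which weighs most on low genes.

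Of the 4 genes of ciliary membrane trafficking, Arl3 passed in untreated against WT, and 0 passed in treated against untreated (0 at an unadjusted p under 0.05 in edgeR, and 0 in DESeq2). Arl3, a GTPase that releases lipid-anchored cargo inside the cilium, had 18, 16.4, 18.5 and 20.1 CPM in treated libraries, 17.5, 18.4, 18.4 and 13.7 CPM in untreated libraries and 18.5, 20.1, 23.8 and 25.5 CPM in WT libraries. The highest untreated and the lowest WT library nearly met, and treated libraries overlapped both other groups. Arl3 fell by 0.37 on the log2 scale in untreated against WT (SE 0.13, edgeR adjusted p = 0.0418) and was at 0.10 in treated against untreated (SE 0.13, edgeR adjusted p = 0.564). The call was lost without the libraries with Foxj1 counts (-0.38, edgeR adjusted p = 0.0976), without WT 2 and WT 3 (-0.36, edgeR adjusted p = 0.152) and without any 1 of WT 3, WT 4, the untreated libraries, treated 1 and treated 3. In these single-library fits the edgeR adjusted p was 0.0526 to 0.145.

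Arl13b, a ciliary GTPase that activates Arl3, had 14.7, 13.2, 17.6 and 12.7 CPM in treated libraries, 18, 17.9, 14.5 and 17.9 CPM in untreated libraries and 15.2, 14.9, 14.1 and 14.2 CPM in WT libraries. Untreated 3 stood apart from its 3 companions and lay among the WT values. The log2 fold changes of 0.22 in untreated against WT (SE 0.12) and -0.23 in treated against untreated (SE 0.12) did not pass. Without treated 3, Arl13b passed as lower in treated against untreated. Inpp5e, the phosphoinositide phosphatase that Arl13b and Arl3 bring to the cilium, had 21.3, 21.3, 23.0 and 24.1 CPM in treated libraries, 25.7, 23.2, 26.5 and 25.2 CPM in untreated libraries and 23.6, 24.2, 26.5 and 23.5 CPM in WT libraries. The 3 groups overlapped, and Inpp5e did not pass in untreated against WT (0.04, SE 0.08) or in treated against untreated (-0.16, SE 0.08). Of its exon bases 20.32% overlap Pmpca on the opposite strand, which was at 92.4 ± 3.74, 88.5 ± 2.55 and 98.8 ± 7.59 CPM in treated, untreated and WT libraries. Unc119b, a carrier of myristoylated cargo, was at 30.6 ± 1.6, 29.4 ± 1.03 and 27.3 ± 4.7 CPM and passed in neither comparison. Without WT 1, Unc119b passed as higher in untreated against WT.

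**Figure D3:**
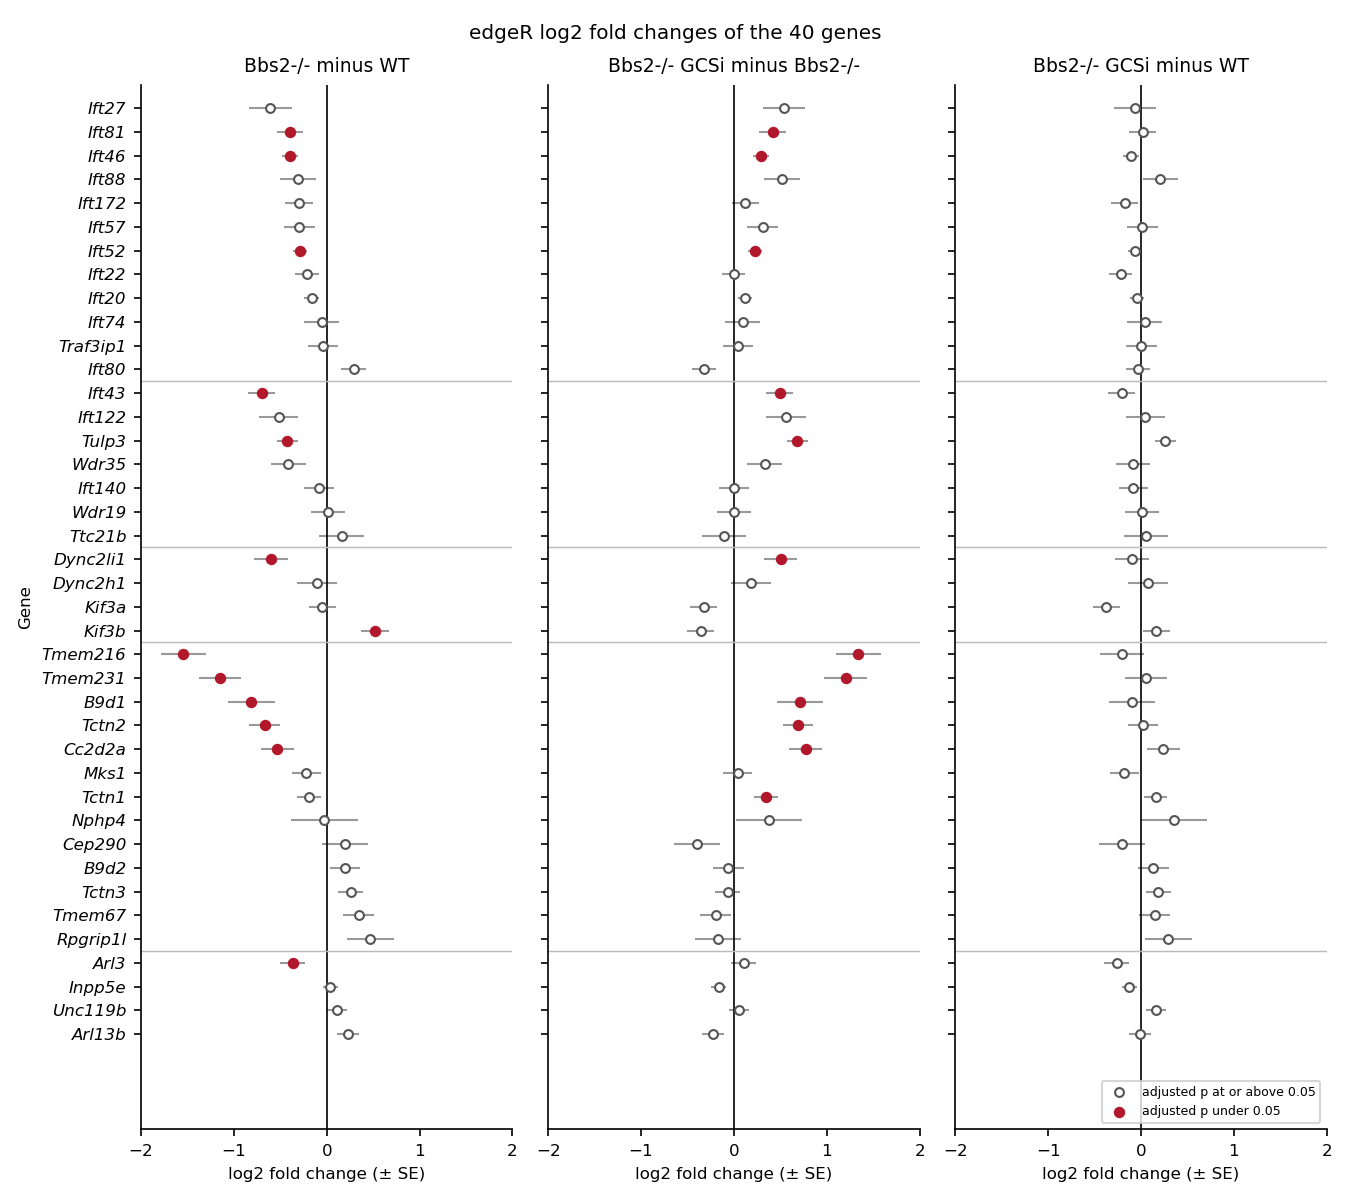
edgeR log2 fold change (x axis, bars show SE) of each of the 40 genes for untreated Bbs2-/- minus WT, treated minus untreated Bbs2-/-, and treated Bbs2-/- minus WT, with filled points at an adjusted p under 0.05. Tmem216 lies farthest from 0 in the left (-1.54) and middle (1.34) panels, and no point is filled in the right panel.

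Primary and motile cilia share much of this machinery, so the genes were compared with the libraries that hold ciliated epithelium RNA. For 4 of the 40 genes (10%), namely Ift22, Ift74, Tmem67 and B9d1, the libraries with Foxj1 counts were the highest pair of both the treated and the WT group. The same held for 4.11% of all tested genes and for 15 of 18 tested motile cilia markers (83.3%). The 24 motile cilia markers summed to 67.4, 12.3, 60.3 and 6.77 CPM in treated libraries, 9.38, 12.9, 11.1 and 12.3 CPM in untreated libraries and 29.3, 8.24, 5.84 and 91.6 CPM in WT libraries. Summed over the 40 genes, the level was 621, 604, 703 and 659 CPM in treated libraries, 566, 569, 597 and 541 CPM in untreated libraries and 686, 648, 656 and 638 CPM in WT libraries. The motile marker sums of treated 4, WT 2 and WT 3 were below those of every untreated library, while the sums over the 40 genes in these libraries were above those of every untreated library. The part of ciliated epithelium RNA in the levels of the 40 genes was not tested, and such sums weigh most on the genes with the highest CPM.

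Without the 4 libraries with Foxj1 counts, 10 of the 40 genes were lower and 1 was higher in untreated against WT (18.4% and 19.5% of all genes). In treated against untreated, 7 were higher and 1, Kif3b, was lower (15.9% and 16.9% of all genes). The calls lost were those of Arl3 and B9d1 in the first comparison and of B9d1, Dync2li1, Ift52, Ift81 and Tctn1 in the second. Without WT 2 and WT 3, which leaves the WT group with its Foxj1-positive libraries only, 3 genes were lower in untreated against WT, Tmem216, Tmem231 and Ift46, and 0 were higher (10 at an unadjusted p under 0.05 in edgeR in either direction), where 10.03% of all genes were lower and 10.2% higher.

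**Figure D4:**
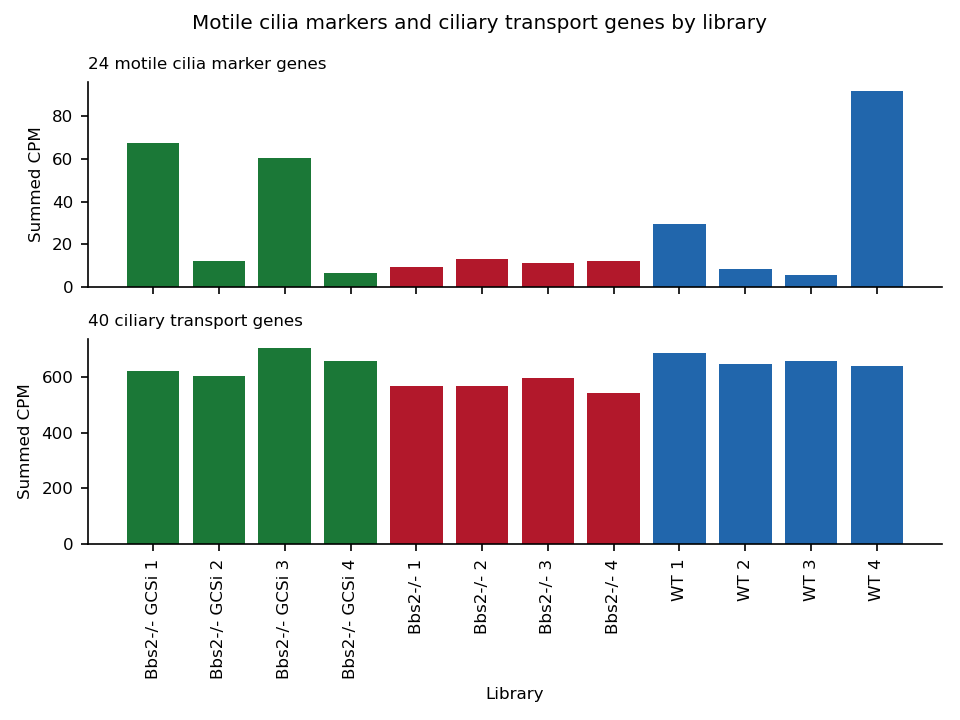
Summed CPM of 24 motile cilia marker genes (top) and of the 40 ciliary transport genes (bottom) in each library. The motile marker sum is highest in treated 1, treated 3, WT 1 and WT 4, while the sum over the 40 genes is lowest in the 4 untreated Bbs2-/- libraries.

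A further 38 cilium genes outside the 40, of which 36 were tested, give the rest of these complexes and of the ciliary base. In untreated against WT 3 rose and 7 fell, and in treated against untreated 7 rose and 4 fell, with medians of -0.12 and 0.12. The 19.4% lower in the first comparison and the 19.4% higher in the second lie near the shares over all genes (19.7% and 18.5%), while 8.33% higher in the first and 11.1% lower in the second lie below them (19.6% and 18.8%). In treated against WT 0 passed in either direction (5 at an unadjusted p under 0.05 in edgeR, and 1 lower in DESeq2). Cep89, of the distal appendages that anchor the cilium, was at 14.2 ± 2.03, 9.87 ± 0.597 and 16 ± 1.13 CPM in treated, untreated and WT libraries (-0.70 in untreated against WT, SE 0.12, edgeR adjusted p = 0.000814, and 0.53 in treated against untreated, SE 0.12, edgeR adjusted p = 0.00425), and it kept both calls in every alternative run.

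Wdr34, an intermediate chain of the inward dynein, was at 11.2 ± 2.55, 7.18 ± 0.732 and 11.6 ± 1.38 CPM in treated, untreated and WT libraries (-0.69 in untreated against WT, SE 0.16, edgeR adjusted p = 0.00571, and 0.64 in treated against untreated, SE 0.16, edgeR adjusted p = 0.00946), and the first call was lost without WT 2 and WT 3 (-0.62, edgeR adjusted p = 0.0523). Iqcb1, a partner of Cep290, was at 7.15 ± 0.92, 4.92 ± 0.73 and 7.97 ± 0.863 CPM and fell by 0.70 in untreated against WT (SE 0.16, edgeR adjusted p = 0.00477). Unc119, a carrier of myristoylated cargo, was at 92.8 ± 16.5, 57.8 ± 5.17 and 73.0 ± 19.3 CPM and passed in treated against untreated (0.68, SE 0.19, edgeR adjusted p = 0.0148).

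Some genes of this wider list went the other way. Rp2, which inactivates Arl3, was at 26.6 ± 1.97, 54.9 ± 6.89 and 30.9 ± 8.5 CPM in treated, untreated and WT libraries (0.83 in untreated against WT, SE 0.17, edgeR adjusted p = 0.00227, and -1.05 in treated against untreated, SE 0.17, edgeR adjusted p = 0.000615). Pde6d, a carrier of prenylated cargo, was lower in treated than in untreated libraries, at 12.2 ± 1.8 against 16.9 ± 1.26 CPM (-0.47, SE 0.12, edgeR adjusted p = 0.0081), and did not pass without the libraries with Foxj1 counts (-0.34, edgeR adjusted p = 0.0613). Tctex1d2, a light chain of the inward dynein, was at 3.45 ± 0.525, 5.43 ± 1.46 and 3.40 ± 0.502 CPM (0.67 in untreated against WT, SE 0.22, edgeR adjusted p = 0.0284). Cep83, of the distal appendages, was at 20.0 ± 1.64, 25.6 ± 0.57 and 20.0 ± 2.87 CPM (0.35, SE 0.11, edgeR adjusted p = 0.0209). The call of Tctex1d2 was lost without WT 2, WT 3, untreated 1 or untreated 4 (edgeR adjusted p of 0.0574 to 0.0782), and that of Cep83 without WT 3, WT 4 or untreated 1 (edgeR adjusted p of 0.0504 to 0.0604). Without WT 2 and WT 3, Tctex1d2 was at 0.56 (edgeR adjusted p = 0.186) and Cep83 at 0.34 (edgeR adjusted p = 0.0798), and without the libraries with Foxj1 counts they were at 0.81 (edgeR adjusted p = 0.0594) and 0.37 (edgeR adjusted p = 0.0638).

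**Figure D5:**
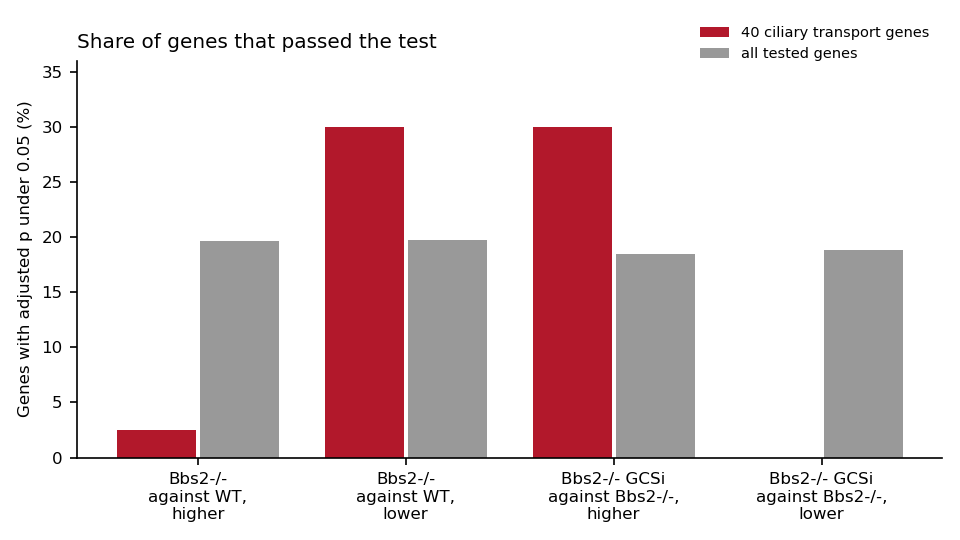
Share of the 40 ciliary transport genes (red) and of all 15968 tested genes (grey) that passed edgeR's test at an adjusted p under 0.05, by comparison and direction. The 40 genes stand at 2.5% higher and 30% lower for untreated Bbs2-/- against WT, and at 30% higher and 0% lower for treated against untreated Bbs2-/-.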

How the data were processed

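Estimated counts were used as deposited by the authors, with 1 column for each of 12 libraries. The authors also deposited log2 FPKM values, which cover 39 of the 40 genes (Tctn2 is not among them). Between 92.96 and 94.17% of the count values were whole within 1e-06. Per the submitters' processing notes the genome was mm10. Libraries were stranded and made from mRNA, per the labels. How reads were aligned and counted, and whether strand was used, is not given in the sources used here. Of 53431 gene identifiers, 52207 were found in the GENCODE annotation of that build, which gave symbols and coordinates.

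Estimated counts were rounded and tested with edgeR 4.0.16 (R 4.3.3): TMM scaling, the filterByExpr filter, the robust quasi-likelihood test on all 12 libraries in 1 fit, and Benjamini-Hochberg adjustment over 15968 genes with a threshold of 0.05. Biological variation across genes had a common coefficient of 0.29. CPM values are per TMM-scaled library size. No library repeats another of its group within sampling noise (chi-square per degree of freedom between 16.9 and 84.9). The procedure was tested on simulated data. Alternatives were DESeq2 1.42.0, limma 3.58.1 on the log2 FPKM values, other scalings and filters, a replicate block, a motile cilia covariate, and fits without single libraries or sets of libraries. The members, the other gene lists and the tests were chosen with earlier results of these data known. Values by library are given for up to 5 called members per direction and comparison with the smallest p, for up to 6 whose call changes without the libraries with Foxj1 counts (at least 10), and for Ift27, Arl13b and Inpp5e. Up to 4 other cilium genes per direction and comparison are named by p. The single-gene result of 1 gene that this rule picks is not reported here, and the gene stays in the counts. Tmem138, the overlapping neighbours Cpsf7, Hvcn1 and Pmpca, and the markers Adipoq and Crisp1 were named outside this rule, after their values were seen. Promoter sequences are RefSeq's, for GRCm38.p6.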

Additional observations from a re-analysis of the deposited data

Results flagged for a closer look

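Of 120 groups of 4 values (40 genes in 3 groups), 10 held a library whose gap to the nearest of the others, as a share of the group's range, exceeded Dixon's critical value, where chance gives about 1 in 20 groups. Their causes were not tested.

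Tmem216 was flagged in both Bbs2-/- groups: treated 4 was at 46.11 CPM against 27.77 to 29.75 CPM in the other treated libraries, and untreated 4 at 18.55 CPM against 10.87 to 11.58 CPM. Treated 4 also stood high for Ift57, at 23.87 CPM against 13.97 to 14.85 CPM, and low for Tulp3, at 22.08 CPM against 25.05 to 25.51 CPM. Untreated 3 stood high for Ift88, at 10.23 CPM against 6.70 to 6.94 CPM, and low for Arl13b, at 14.52 CPM against 17.88 to 18.04 CPM. Mks1 in untreated 4 was at 9.442 CPM against 7.411 to 7.525 CPM, and Tctn3 in untreated 1 was at 9.123 CPM against 11.09 to 11.31 CPM. B9d2 in treated 3 was at 6.086 CPM against 7.658 to 7.969 CPM. Dync2h1 in WT 1, the library with the most epididymis transcripts, was at 9.53 CPM against 4.644 to 5.405 CPM in the other WT libraries.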

How the results depend on the processing

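For untreated Bbs2-/- against WT, the 1 higher and 12 lower genes of the 40 became 5 and 4 with library size alone, 0 and 3 without WT 2 and WT 3, and 2 and 11 with the motile cilia level as a covariate. With the covariate 19.8% of all genes were higher and 19.4% were lower. Leaving out 1 library at a time gave 1 to 3 higher (3 without WT 1) and 7 to 13 lower (7 without untreated 4). Of all genes, 22.6% were higher without WT 1 and 15.3% were lower without untreated 4. For treated against untreated, the 12 higher and 0 lower became 5 and 3 with library size alone, 7 and 0 with no filter on low counts, 7 and 1 without the libraries with Foxj1 counts, 12 and 1 with only the compared groups in the fit, and 8 and 1 with the covariate. Of all genes, 8.68% were higher and 9.18% lower with no filter. These shares were 20.1% and 20.6% with only the compared groups, and 17.9% and 18.7% with the covariate. Leaving out 1 library at a time gave 6 to 14 higher (6 without untreated 1 or treated 4, and 7 without untreated 2, untreated 3 or treated 3) and 0 to 2 lower (2 without WT 1, and 1 without untreated 4 or treated 3). The share of all genes that were higher was 14.4% without untreated 1 and 14.6% without treated 4. The share of the 40 genes was therefore near that of all genes in the fits with 6 higher. In the fits with 7 higher, 12.5% to 15.8% of all genes were higher. Treated against WT gave 0 and 0 in every setting run. The causes of these shifts were not tested.

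The labels do not say that replicate numbers pair the libraries, and the data leave it unclear. Correlations between same-numbered untreated and treated libraries were 0.31, 0.12, 0.14 and 0.0999, so not every one was over 0.1, while pairs with other numbers lay between -0.28 and 0.20 and untreated 4 correlated best with treated 2. Same-numbered pairs with WT lay between -0.15 and 0.28. With the replicate block the counts were 1 higher and 10 lower for untreated against WT, and 9 higher and 0 lower for treated against untreated, with the calls of Arl3 and Ift81 lost in the first and of B9d1, Dync2li1, Ift52 and Tctn1 in the second, where Ift88 was gained. Of all genes, 19.3% were higher and 18.3% lower with the block in the first comparison, and 17.4% and 18.1% in the second. Over 48 single-gene values and 24 other settings, 0 changed sign, 197 fell below the threshold and 8 rose past it.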
